A study of Macaca fascicularis and Macaca mulatta with 24 samples.

Results

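ICAM5, ITPKA, CAMK2A, CAMK2B, NRGN, PPP3CA and RND1 are 7 genes of the dendrites and spines of cortical neurons, or of the calcium signalling that runs there. They were chosen by symbol, with earlier results of these arrays in view, and each was read by 1 probe, 7 of the 20217 gene probes on the array. Which comparison led to the choice was not recorded, so every value and every adjusted p given for these genes describes these arrays and is no independent evidence of a direction. All 7 probes passed the filter on dim probes, being well above background in the sample channel on all 24 arrays, and 15899 genes were tested with them.

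Each sample was a flash-frozen biopsy of cerebral cortex from a cynomolgus macaque whose right middle cerebral artery had been occluded, a model of stroke in which the blood supply to part of the right hemisphere is stopped. Animals were given placebo or 2.6 mg/kg of TatNR2B9c into a vein 5 min after the occlusion, and tissue was taken 1 h or 6 h after it. TatNR2B9c is a peptide that carries the tail of the NMDA receptor subunit NR2B on a cell-entering Tat segment and competes with the receptor for its scaffold protein PSD-95. The 8 groups of 3 arrays were left (non-ischemic) and right (ischemic) cortex of placebo animals at 1 h, of placebo animals at 6 h, of TatNR2B9c animals at 1 h and of TatNR2B9c animals at 6 h. Left and right arrays of 1 number were read as 1 animal, 12 animals in all. Every animal had the occlusion, so the left cortex is the uninjured side of an injured brain and not tissue of an unoperated animal.

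Spines are the small protrusions on which excitatory synapses of cortical neurons sit, and calcium that enters them through NMDA receptors binds calmodulin. ICAM5 (telencephalin) is an adhesion protein of forebrain dendrites, and ITPKA is a spine kinase that phosphorylates inositol trisphosphate and bundles actin. CAMK2A and CAMK2B are the alpha and beta chains of CaM kinase II, NRGN (neurogranin) binds calmodulin when calcium is low, PPP3CA is the catalytic alpha chain of the phosphatase calcineurin, and RND1 acts in plexin signalling and spine formation.

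The gene names were taken from the annotation of the probes and were not checked against sequence. The last 30 of the 60 bases of each probe are shown, with the letters AATAAA in capitals where they occur.
ICAM5: atcccctctccccgcgggccgggggatgcc
ITPKA: tacactaggttggactccccttcctaataa
CAMK2A: attcttggtgttttcagtgcAATAAAtagc
CAMK2B: gtttggagcccgactgccctcgggcacacg
NRGN: ttagttctgcagtctagtatggtccccatt
PPP3CA: gcaactatggcatagaAATAAAcatttgac
RND1: gtgtttcaatctgttatatgttctgtgttt

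The sequences were taken from the deposited scanner files, which place the whole probes on the rhesus macaque build rheMac2. The files list ICAM5 at chr19:10109477-10109536, ITPKA at chr7:19893223-19893282, CAMK2B at chr3:82117005-82117064 and NRGN at chr14:122898284-122898343, on the plus strand by the order of the coordinates. They list CAMK2A at chr6:146699330-146699389, PPP3CA at chr5:93985754-93985813 and RND1 at chr11:45979571-45979630, on the minus strand by that order. No genome was used here, so the exon or untranslated region that each probe reads was not looked up, and rhesus probes can bind cynomolgus RNA less well where the species differ. The newest annotation in the files names ITPKA and PPP3CA and describes NRGN, CAMK2B and RND1 through macaque entries, while the ICAM5 and CAMK2A probes are named only by the human entry in the oldest files. AATAAA, the letters of the common polyadenylation signal, was found in the whole probe of 2 of the 7 genes (CAMK2A and PPP3CA), against 12.8% of all probes, and on the opposite strand in CAMK2A, against 4.67%. The ICAM5 probe has 73.3% G and C, a share that 0.78% of all probes reach, and the CAMK2B probe has 66.7%, which 2.47% reach. The other 5 probes lie between 35.0% and 53.3%, and the median of all probes is 41.7%.

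Values are log2 ratios of sample RNA in Cy5 over a common macaque reference RNA in Cy3, so a value of 1 means a doubling, and levels were not compared between probes. Scan days and software versions split the arrays into 3 campaigns, placebo animals at 1 h, placebo animals at 6 h and TatNR2B9c animals. Differences between treatments, and between times under placebo, therefore cannot be told apart from the campaign, whereas right against left and the times under TatNR2B9c lie within 1 campaign. They are not free of scan day, of which there were 5. At 6 h, placebo left arrays 1 and 3 were scanned on day 2, and placebo left array 2 and the placebo right arrays on day 3. Under TatNR2B9c, the 6 h arrays of animals 1 and 2 were scanned on day 5 and all others on day 4. In the reference channel 15.7% to 51.7% of probes stood well above background in placebo cortex at 1 h and 84.3% to 92.5% at 6 h, against 51.8% to 74.5% and 72.3% to 99.3% under TatNR2B9c. The 3 arrays with the fewest such probes, number 1 (18.0%) and number 3 (15.7%) of the left and number 3 (22.2%) of the right placebo cortex at 1 h, are called weak-reference arrays. Of the 9 listed neuron markers 8 were measured and all 8 were well above background on every array, as were all 5 excitatory neuron markers. In tissue, fewer cells of a type and less RNA per cell cannot be told apart.

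ICAM5 was lowest in placebo cortex at 1 h and highest in placebo cortex at 6 h. In placebo left cortex its log2 ratio was -0.94, -0.61 and -2.78 at 1 h and 3.60, 2.99 and 3.61 at 6 h. In placebo right cortex it was -0.51, -0.16 and -1.01 at 1 h and 2.97, 4.21 and 3.76 at 6 h. Every placebo 6 h array lay above every placebo 1 h array on both sides, with no overlap. Under TatNR2B9c the left cortex read 0.53, 1.21 and 0.52 at 1 h and 1.92, 3.28 and 1.56 at 6 h. The right cortex read 1.09, 0.94 and 0.32 at 1 h and 3.00, 3.84 and 1.95 at 6 h. The times did not overlap on either side, and the TatNR2B9c values lay between those of placebo at 1 h and at 6 h on the left except at array 2 at 6 h, which lay within the placebo 6 h range.

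**Figure D1:**
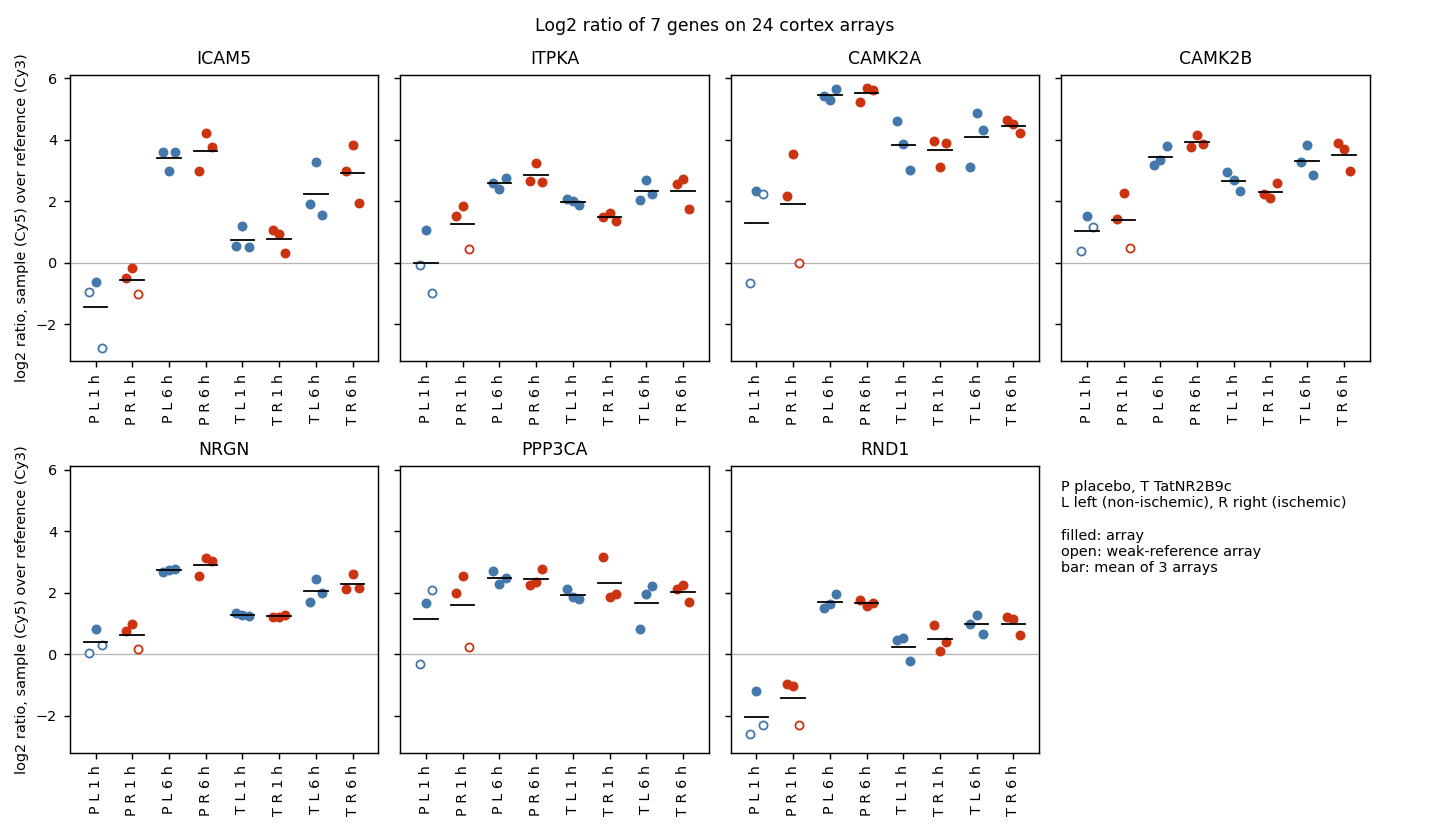
Log2 ratio of sample over reference (vertical axis) for the 7 genes in the 8 groups (horizontal axis), with 1 point for each array, a bar at the mean of 3 arrays, and the weak-reference arrays open. The 6 placebo 1 h arrays of ICAM5 lie between -2.78 and -0.16 and its 6 placebo 6 h arrays between 2.97 and 4.21, while PPP3CA has overlapping ranges in most groups.

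By limma over all genes, ICAM5 was higher at 6 h than at 1 h by 4.84 ± 0.55 (SE) in placebo left cortex, 28.7-fold (adjusted p = 4.55e-06). In placebo right cortex it was higher by 4.20 ± 0.55, or 18.4-fold (adjusted p = 2.53e-05). These folds are of the ratio, between arrays whose spread over genes was smaller at 1 h than at 6 h. Under TatNR2B9c the same difference came to 1.498 (95% interval 0.35 to 2.65) in left cortex and 2.15 (0.998 to 3.30) in right cortex, and neither passed (limma adjusted p = 0.224 and 0.0848). Among all genes tested these TatNR2B9c differences stood at the percentiles 99.9 and 99.97.

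ITPKA stood out by its placebo left 1 h arrays, which read -0.07, 1.08 and -0.99, against 1.53, 1.85 and 0.45 on the right. The values -0.07, -0.99 and 0.45 came from the weak-reference arrays. In the sample channel alone log2 Cy5 was 13.46, 13.22 and 13.34 on the left, against 13.66, 13.28 and 12.14 on the right. The right minus left difference there was 0.19, 0.06 and -1.20 by animal. The last came from animal 3, whose left and right arrays are both weak-reference arrays. At 6 h placebo left cortex read 2.61, 2.39 and 2.76 and placebo right 2.66, 3.25 and 2.63, above all placebo 1 h arrays. Under TatNR2B9c the range over both sides was narrower, from 1.35 to 2.06 at 1 h and from 1.75 to 2.72 at 6 h. ITPKA was called higher at 6 h in placebo left cortex by 2.58 ± 0.40 (limma adjusted p = 5.18e-05) and in placebo right cortex by 1.57 ± 0.40 (adjusted p = 0.00472). Under TatNR2B9c the difference was 0.35 (interval -0.50 to 1.19) on the left and 0.86 (0.01 to 1.70) on the right, and it was not called.

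CAMK2A had the widest spread among the arrays of placebo cortex at 1 h. Its placebo 1 h arrays read -0.66, 2.34 and 2.24 on the left and 2.17, 3.56 and 0.01 on the right. At 6 h they read 5.44, 5.30 and 5.64 on the left and 5.24, 5.70 and 5.64 on the right. The lowest of the 1 h values came from 2 of the weak-reference arrays, left array 1 and right array 3, and no 1 h array reached the 6 h values. Under TatNR2B9c the range over both sides was 3.01 to 4.62 at 1 h and 3.11 to 4.88 at 6 h, with overlap on the left and none on the right. The placebo times differed by 4.15 ± 0.76 on the left and by 3.62 ± 0.76 on the right (limma adjusted p = 0.000207 and 0.00109), against 0.27 (interval -1.32 to 1.86) and 0.80 (-0.80 to 2.39) under TatNR2B9c.

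CAMK2B, the chain that anchors CaM kinase II to actin, had 1 h means of 1.02 ± 0.59 (SD, n = 3) and 1.39 ± 0.89 in placebo left and right cortex. Its 6 h means were 3.45 ± 0.31 and 3.92 ± 0.20, and the ranges at the times did not overlap. In TatNR2B9c animals it was at 2.66 ± 0.31 and 2.30 ± 0.25 at 1 h and at 3.32 ± 0.48 and 3.52 ± 0.47 at 6 h. The times overlapped on the left and not on the right. It rose under placebo by 2.42 ± 0.38 (SE) on the left and by 2.53 ± 0.38 on the right (limma adjusted p = 4.97e-05 and 6.67e-05). The TatNR2B9c differences of 0.65 (interval -0.14 to 1.44) and 1.22 (0.43 to 2.01) were not called.

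NRGN had the smallest spread of the 7 at 1 h. Placebo left cortex read 0.03, 0.82 and 0.30 at 1 h and 2.69, 2.75 and 2.77 at 6 h. Placebo right cortex read 0.76, 0.97 and 0.16 at 1 h and 2.53, 3.12 and 3.04 at 6 h. The placebo times were far apart on both sides, although the reference signal of NRGN was not well above background on the 3 weak-reference arrays. TatNR2B9c left cortex read 1.32, 1.29 and 1.26 at 1 h and 1.70, 2.45 and 2.00 at 6 h, and TatNR2B9c right cortex 1.21, 1.21 and 1.27 and then 2.11, 2.62 and 2.17. These times did not overlap either. The limma difference was 2.35 ± 0.23 and 2.27 ± 0.23 in placebo left and right cortex (adjusted p = 2.02e-06 and 3.74e-06), and 0.76 (interval 0.28 to 1.24) and 1.07 (0.59 to 1.55) under TatNR2B9c, where neither was called (adjusted p = 0.184 and 0.0684).

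PPP3CA differed from the other 6 in showing no called change in any of the 15 comparisons. Its placebo 1 h arrays ran from -0.33 to 2.08 on the left and from 0.23 to 2.54 on the right, and its placebo 6 h arrays from 2.28 to 2.69 and from 2.24 to 2.75. The times overlapped on the right and not on the left. The placebo difference was 1.35 (interval 0.16 to 2.54, limma adjusted p = 0.0516) on the left and 0.86 (-0.33 to 2.05, adjusted p = 0.236) on the right. Under TatNR2B9c it was -0.26 (-1.45 to 0.93) and -0.29 (-1.48 to 0.90).

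RND1 was below the reference in placebo cortex at 1 h, at -2.61, -1.19 and -2.31 on the left and -0.96, -1.04 and -2.29 on the right. At 6 h it read 1.501, 1.63 and 1.94 on the left and 1.78, 1.57 and 1.67 on the right, so that all 6 h arrays lay above all 1 h arrays. TatNR2B9c cortex read 0.45, 0.51 and -0.23 on the left and 0.95, 0.11 and 0.39 on the right at 1 h, above all placebo 1 h arrays. At 6 h it read 0.99, 1.27 and 0.65 on the left and 1.197, 1.15 and 0.62 on the right, below all placebo 6 h arrays. RND1 rose under placebo by 3.72 ± 0.36 on the left and by 3.101 ± 0.36 on the right (limma adjusted p = 2.01e-06 and 1.06e-05). The TatNR2B9c differences were 0.72 (interval -0.03 to 1.48) and 0.51 (-0.25 to 1.26) and were not called.

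The comparison of 6 h with 1 h gave the largest differences of these genes, and in placebo animals a large share of all genes differed as well. In placebo right cortex 6 of the 7 genes were called higher at 6 h, where 21.5% of all genes tested were, and in placebo left cortex 6 of 7, where 30.8% were. The groups did not overlap, with 6 h higher, for 6 of 7 genes on the right (32% of all genes) and for 7 of 7 on the left (37.2%). The 7 genes had a median difference of 2.53 in right and 2.58 in left cortex, and that of all genes was 0.04 and 0.11. With the spread of the arrays over genes made equal, fewer time differences of the 7 genes were called, with the count given at the end. Under TatNR2B9c 0 of 7 genes were called on either side, as were 0% of all genes by limma on the right and 0% on the left, and 4 of the 7 on the right and 2 on the left had an unadjusted p under 0.05. The TatNR2B9c groups did not overlap, with 6 h higher, for 5 of 7 genes on the right (17% of all genes) and 3 of 7 on the left (7.2%), with medians of 0.86 and 0.65 against 0.04 and -0.02 for all genes. Whether the difference between times itself differed between treatments was not tested.

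**Figure D2:**
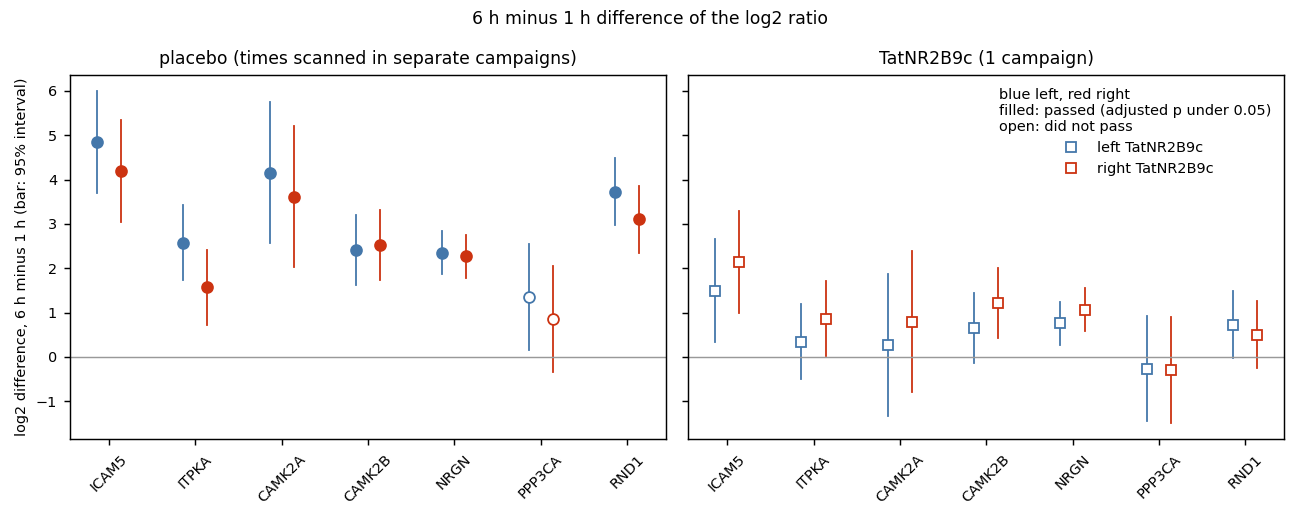
Difference of the log2 ratio between 6 h and 1 h (vertical axis) with its 95% interval for the 7 genes (horizontal axis) in placebo animals (left panel, circles) and TatNR2B9c animals (right panel, squares). Filled symbols passed, which was so for 6 of 7 genes on each side under placebo and for 0 of 7 under TatNR2B9c.

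Within TatNR2B9c, animal 3 of both times shared 1 slide, which allows a comparison with no change of slide or scan day. On that slide the 6 h array minus the 1 h array was above 0 for 7 of 7 genes on the left (median 0.74) and 6 of 7 on the right (median 0.39). ICAM5 gave 1.03 on the left and 1.64 on the right, and NRGN 0.74 and 0.90. PPP3CA was the exception on the right, at -0.27. Each of these values is 1 array against 1 array. In the sample channel (Cy5) alone most of the 7 genes were lower at 6 h on that slide. The log2 Cy5 of RND1 went from 10.72 to 10.42 on the left and from 11.20 to 10.21 on the right. ICAM5 went from 10.22 to 10.13 on the left. The genes higher at 6 h in Cy5 were NRGN on both sides and ICAM5 on the right (9.92 to 10.03). Against the 3 TatNR2B9c 1 h arrays of the same scan day, the 6 h arrays of animal 3 gave medians of 0.41 on the left and 0.56 on the right. With scan day as a block in the limma fit, the ICAM5 difference fell to 0.66 on the left and 1.31 on the right, and NRGN was at 0.67 and 0.98, with 0 genes of the 7 called.

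The channels were then taken one at a time, since a rise of the ratio can come from more sample signal or less reference signal. In Cy5 alone, with arrays brought to 1 distribution of intensities, ICAM5 was higher at 6 h than at 1 h by 1.87 in left and 2.75 in right placebo cortex. NRGN was higher by 1.58 and 2.38, CAMK2B by 1.56 and 2.07, and RND1 by 2.14 and 2.33, all called (limma adjusted p from 3.59e-05 to 0.0044). The gain of these 4 genes was therefore seen in the sample channel as well. ITPKA was at 0.27 on the left, where it was not called (limma adjusted p = 0.635), and at 0.86 on the right (adjusted p = 0.0466), and CAMK2A at 0.73 (adjusted p = 0.0662) and 1.095 (adjusted p = 0.00481). PPP3CA turned and was called lower at 6 h, with differences of -1.72 on the left and -1.83 on the right (limma adjusted p = 0.00261 and 0.000732).

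In the Cy3 channel, which held the reference RNA, arrays were likewise brought to 1 distribution of intensities. After that step the signal of the same probes was not constant. The Cy3 difference between placebo 6 h and 1 h for ICAM5 came to -2.42 in left and -1.44 in right cortex, to -3.32 and -2.35 for CAMK2A, -2.44 and -2.07 for PPP3CA, and -1.92 and -1.04 for RND1. For ITPKA it was -1.71 and -0.29, for CAMK2B -0.59 and -0.13, and for NRGN -0.01 and 0.86. Under TatNR2B9c, within 1 campaign, the Cy3 differences were smaller, between -1.01 and -0.08 over the 7 genes and both sides, and none was called. The log2 Cy3 intensity of CAMK2A was 14.40 on placebo left 1 h array 1, a weak-reference array, and 8.45 to 9.38 on the 6 placebo 6 h arrays. These values rank a probe within its array and do not show a brighter reference at 1 h. Before scaling, the mean Cy3 signal of CAMK2A was 248 on that 1 h array and 955 to 2213 on the placebo 6 h arrays. That of ICAM5 was 71 to 205 on placebo 1 h arrays and 110 to 228 on placebo 6 h arrays. Under TatNR2B9c the Cy5 differences were also small, with ICAM5 at -0.0008 on the left and 0.91 on the right and NRGN at 0.13 and 0.41, none called.

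**Figure D3:**
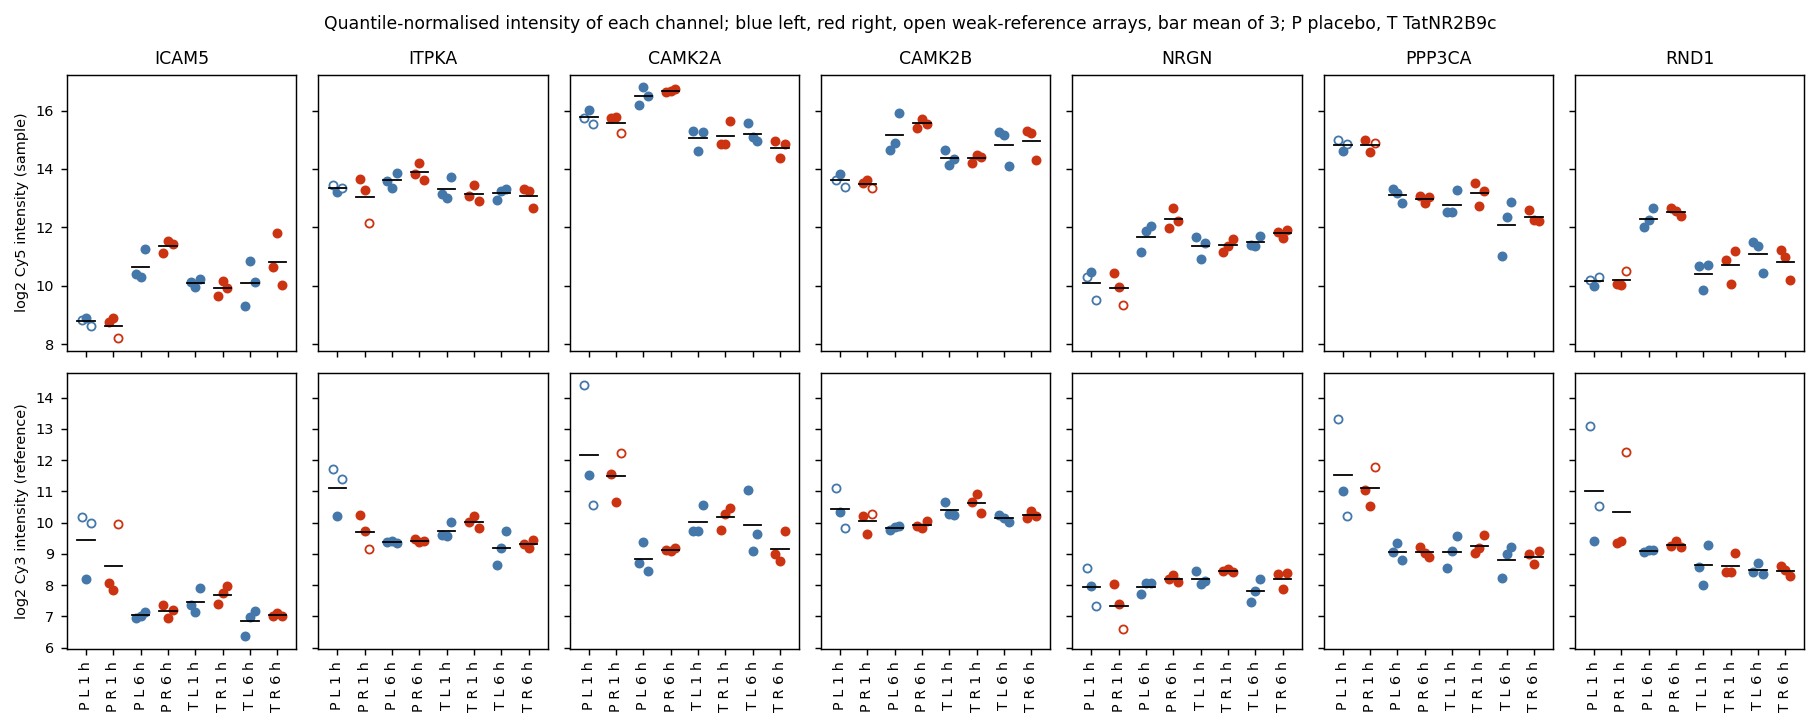
Log2 intensity of the sample channel (Cy5, upper row) and the reference channel (Cy3, lower row) on the vertical axes for the 7 genes, by group on the horizontal axis, with 1 point for each array and a bar at the mean of 3. In each channel the arrays were first brought to 1 distribution of intensities. The Cy3 points of CAMK2A, PPP3CA, ICAM5 and RND1 are highest and most scattered in placebo 1 h cortex, and PPP3CA is the gene whose Cy5 points are highest there.

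Without the 3 weak-reference arrays, which leaves 1 left and 2 right placebo 1 h arrays, 6 of the 7 genes were called higher at 6 h on each side, where the single left array has no spread of its own and was assumed to vary like the other groups. ICAM5 then differed by 4.01 on the left and by 3.98 on the right, and those of the other called genes ran from 1.51 to 3.12 on the left and from 1.16 to 2.67 on the right. NRGN under TatNR2B9c on the right then passed (1.07, limma adjusted p = 0.0411). Centring each array on its median without the loess step moved the median of all genes by -0.79 on the right and -0.89 on the left. CAMK2A, CAMK2B and ITPKA then lay at -0.56, -1.68 and -1.42 on the left and -0.16, -0.77 and -1.35 on the right, while ICAM5 kept a called rise of 3.08 and 3.40. With arrays weighted by their quality, 3 of 7 genes were called higher at 6 h in TatNR2B9c right cortex, ICAM5 by 2.43, CAMK2B by 1.36 and NRGN by 1.12 (limma adjusted p = 0.00539, 0.011 and 0.00384).

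**Figure D4:**
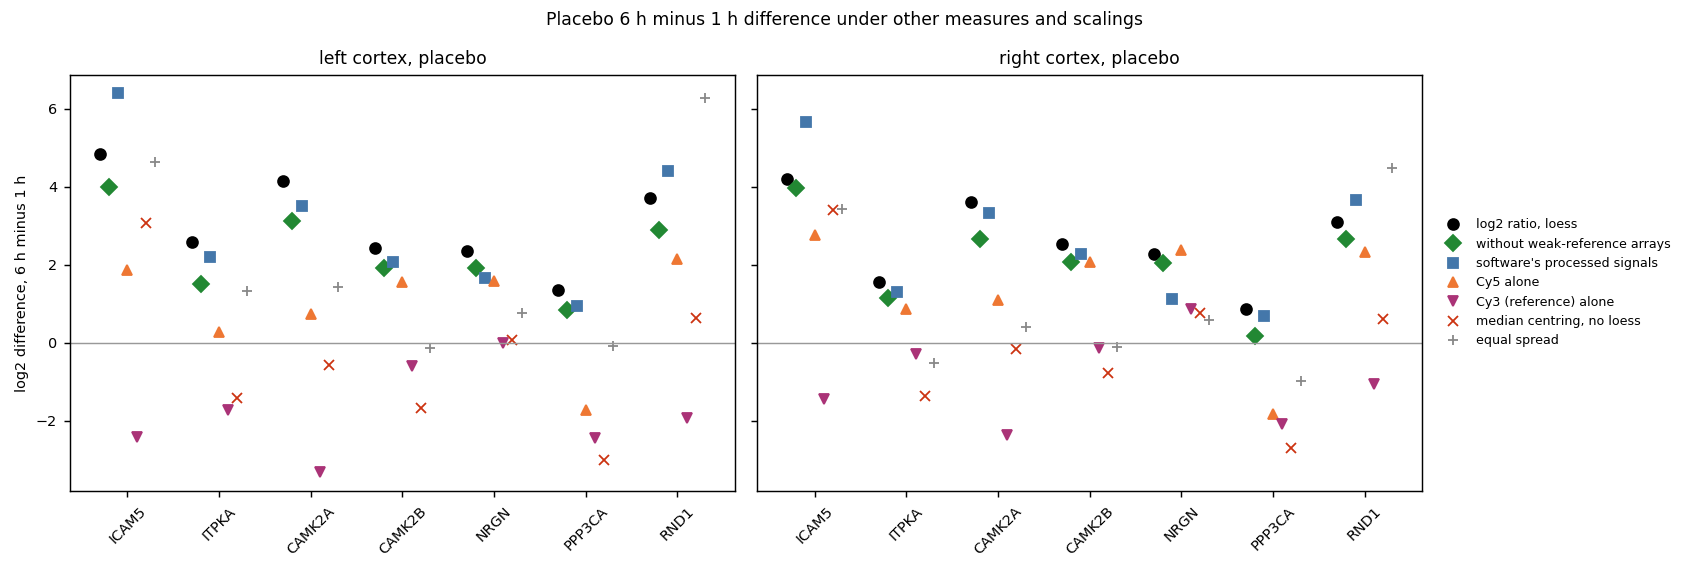
Placebo 6 h minus 1 h difference in log2 (vertical axis) of the 7 genes (horizontal axis) in left and right cortex, with 1 symbol for each measure or scaling. ICAM5 is above 0 in each measure that includes the sample channel, and PPP3CA is below 0 in Cy5 alone (-1.72 and -1.83) although above 0 in the ratio (1.35 and 0.86).

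TatNR2B9c was compared with placebo in each hemisphere at each time, the contrast that asks whether the peptide moved these genes, and it joins treatment with campaign. At 1 h all 7 genes were higher under TatNR2B9c on both sides, and at 6 h all 7 were lower on both sides. In left cortex at 1 h 3 of 7 genes were called higher (0.855% of all genes), RND1 by 2.28 ± 0.36 (SE), ITPKA by 1.98 ± 0.40 and CAMK2B by 1.64 ± 0.38 (limma adjusted p = 0.00617, 0.0265 and 0.0456). ICAM5 was at 2.20 (interval 1.05 to 3.35, adjusted p = 0.0664) and CAMK2A at 2.53 (0.94 to 4.12, adjusted p = 0.14), and the groups did not overlap for 6 of 7 genes (10.8% of all genes). In right cortex at 1 h 1 of 7 was called higher (0.359% of all genes), RND1 by 1.91 ± 0.36 (limma adjusted p = 0.0136), with groups apart for 3 of 7 (12.3% of all genes). The 7 genes had a median of 1.98 on the left and 0.91 on the right, and that of all genes 0.02 on each side. With median centring in place of loess the direction turned, with 6 of 7 genes below 0 at 1 h on each side (medians -2.28 on the left and -2.02 on the right), of which 6 were called lower on the left and 4 on the right. ICAM5 alone stayed above 0 there, at 0.43 and 0.57.

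In left cortex at 6 h 1 of 7 genes was called lower under TatNR2B9c (13.7% of all genes), NRGN with a difference of -0.68 ± 0.23 (limma adjusted p = 0.0373). That call was made in 8 of 21 alternatives, whose values ran from -1.53 to 0.32 (adjusted p from 0.00886 to 0.998). The groups there were apart for 4 of 7 genes, CAMK2A, NRGN, PPP3CA and RND1, where 18.1% of all genes were lower with groups apart. In right cortex at 6 h 0 of 7 were called, against 4.27% of all genes in either direction, and groups were apart for CAMK2A and RND1, 2 of 7 (11.8% of all genes). The medians were -0.72 on the left and -0.60 on the right. Without the weak-reference arrays 0 of 7 genes were called in left cortex at 1 h, where 1 placebo array was then left. RND1 was there at 1.44, ITPKA at 0.91 and CAMK2B at 1.14 (limma adjusted p = 0.156, 0.415 and 0.4), and RND1 in right cortex was at 1.49 (adjusted p = 0.0296). In Cy5 alone the 1 h differences of ITPKA were -0.04 on the left and 0.11 on the right, and those of PPP3CA -2.06 and -1.65, while NRGN was higher by 1.25 and 1.47 and ICAM5 by 1.31 and 1.295. RND1, called in the ratio on both sides, was at 0.26 on the left and 0.51 on the right in Cy5 alone (limma adjusted p = 0.64 and 0.332), CAMK2B at 0.77 and 0.88, and CAMK2A at -0.70 and -0.46, none of them called. At 6 h all 7 were below 0 in Cy5 alone on both sides, with CAMK2A at -1.29 on the left and -1.94 on the right and RND1 at -1.21 and -1.72, all called (limma adjusted p from 0.000312 to 0.0209).

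Cell type markers also differed between the treatments. At 1 h all 8 measured neuron markers were above 0 under TatNR2B9c against placebo on both sides, with medians of 1.27 on the left, where 1 was called higher, and 0.87 on the right, where 0 were. Their mean log2 Cy5 intensity was 13.14 under TatNR2B9c and 13.34 under placebo on the left, and 13.40 and 13.29 on the right. The interneuron marker SLC32A1 was called higher at 1 h, by 3.23 on the left and 2.20 on the right, and the astrocyte marker SLC1A2 by 2.18 on the right. At 6 h all 8 were below 0, with medians of -0.61 and -0.62, and 1 was called lower on the left. Excitatory neuron markers were called lower for 3 of 5 and oligodendrocyte markers for 2 of 6 in left cortex at 6 h, and 0 of either on the right. Blood markers lay higher at 6 h, with 2 of 4 called on each side (10.6% of all genes were called higher on the left). The haemoglobin chain HBB was higher by 5.03 on the left and 5.89 on the right, and the list medians were 2.05 and 1.88. Of 4 meningeal and choroid plexus markers the call at 6 h was higher for 2 in left and 1 in right cortex, and of 6 astrocyte markers for 1 in each. In left cortex at 6 h the interneuron marker VIP was called lower (-1.12) and the endothelium marker PECAM1 higher (1.76). The part of these markers in the treatment differences of the 7 genes was not tested.

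Ischemic right cortex was compared with non-ischemic left cortex within each group of animals. None of the 7 genes was called in placebo animals at 1 h (0% of all genes) or 6 h (0%), in TatNR2B9c animals at 1 h (0%) or 6 h (0%), or over the 4 groups of animals together (0%). By limma at an unadjusted p under 0.05, ITPKA in placebo animals at 1 h was the only one of the 7 in these comparisons. Its right minus left difference was 1.27 (interval 0.43 to 2.12, limma adjusted p = 1), and the animals gave 1.60, 0.78 and 1.44. In TatNR2B9c animals at 1 h the same difference was -0.50 (-1.34 to 0.35), with animals at -0.56, -0.39 and -0.53. In Cy5 alone the ITPKA difference at 1 h was -0.32 under placebo and -0.16 under TatNR2B9c, and in Cy3 alone it was -1.40 and 0.29. By animal the Cy5 differences were 0.19, 0.06 and -1.20 under placebo, the last from a pair of weak-reference arrays. Under TatNR2B9c they were -0.08, 0.42 and -0.83.

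ICAM5 was higher on the right in 9 of 12 animals, with a pooled difference of 0.46 (interval -0.12 to 1.03, limma adjusted p = 0.887). The pooled differences of the other 6 genes lay between 0.15 and 0.30. CAMK2A varied most between animals, from -2.23 to 2.83, both extremes in placebo animals at 1 h whose pairs hold a weak-reference array. NRGN varied least, from -0.15 to 0.73. In placebo animals at 1 h all 7 genes were higher on the right in animals 1 and 2 and 3 of 7 in animal 3. The median over the 7 genes was 0.60 in placebo animals at 1 h, 0.17 at 6 h, -0.06 in TatNR2B9c animals at 1 h and 0.25 at 6 h, each with a median of all genes between -0.05 and 0.07.

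**Figure D5:**
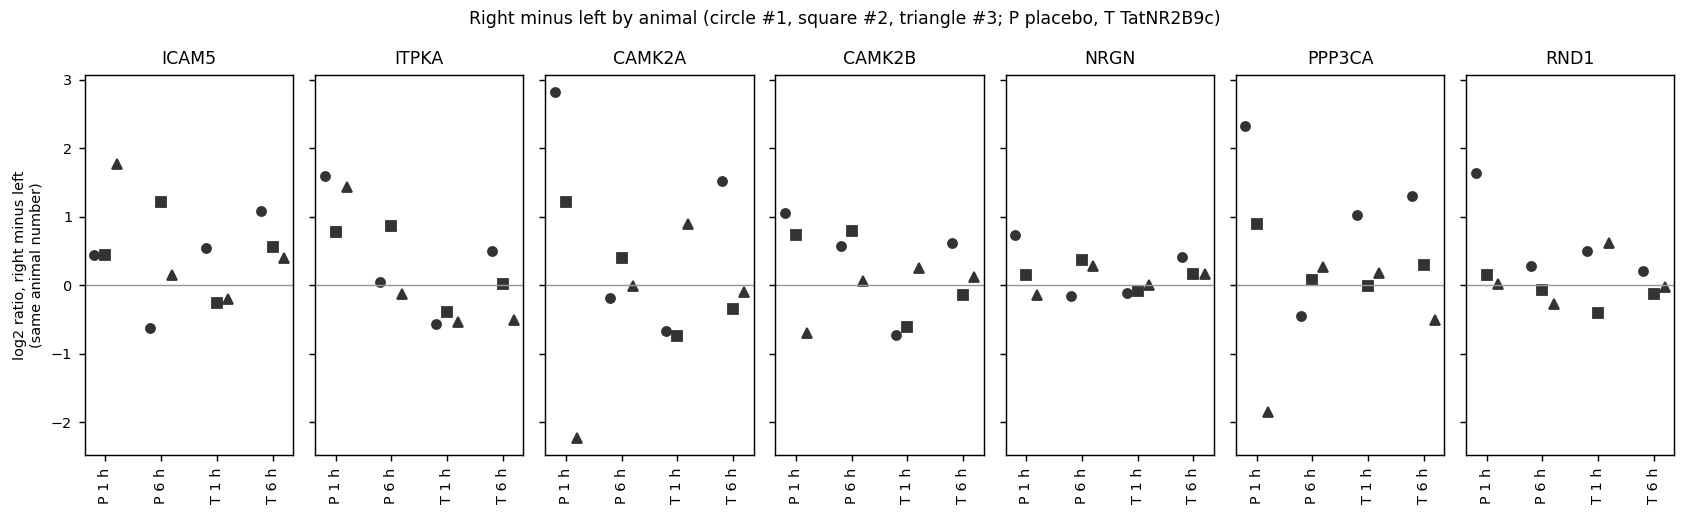
Right minus left difference of the log2 ratio (vertical axis) of each animal, by gene and by treatment and time (horizontal axis), with the symbol giving the animal number. ITPKA is above 0 in the 3 placebo animals at 1 h and below 0 in the 3 TatNR2B9c animals at 1 h, and CAMK2A spans -2.23 to 2.83.

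The treatment by hemisphere interaction, which asks whether the right minus left difference changed with TatNR2B9c, was called for 0 of the 7 genes at 1 h (0% of all genes) and at 6 h (0%). At 1 h all 7 estimates were below 0, with a median of -0.73 and ITPKA lowest at -1.77 (interval -2.96 to -0.58, limma adjusted p = 1). In Cy5 alone 6 of 7 of these estimates were above 0, with ITPKA at 0.15. At 6 h the median was 0.08.

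Over the 8 groups the order of levels was similar for ICAM5, ITPKA, CAMK2A and NRGN. Placebo right and left cortex at 6 h were highest, TatNR2B9c cortex at 6 h next, then TatNR2B9c cortex at 1 h, and placebo right and then left cortex at 1 h lowest. Neighbours that did not overlap were few. For ICAM5 the TatNR2B9c left 6 h group (2.25 ± 0.91, SD) lay clear of TatNR2B9c right 1 h (0.78 ± 0.41), and TatNR2B9c left 1 h (0.76 ± 0.39) clear of placebo right 1 h (-0.56 ± 0.43). For NRGN the breaks lay between placebo left 6 h (2.73 ± 0.04) and TatNR2B9c right 6 h (2.30 ± 0.28), between TatNR2B9c left 6 h (2.05 ± 0.38) and left 1 h (1.29 ± 0.03), and between TatNR2B9c right 1 h (1.23 ± 0.03) and placebo right 1 h (0.63 ± 0.42). In PPP3CA every group overlapped with its neighbour in the order, and in CAMK2B too.

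Across the 24 arrays 6 of the genes moved closely with the mean of the 7, each gene centred on its own mean first. Pearson's r with that mean was 0.97 for RND1, CAMK2B and NRGN, 0.96 for CAMK2A, 0.94 for ICAM5, 0.93 for ITPKA and 0.69 for PPP3CA, where each gene is part of the mean and the arrays share campaigns. Between pairs, ICAM5 and NRGN had r = 0.96 in the ratio and 0.87 in Cy5 alone. PPP3CA and NRGN had 0.57 in the ratio and -0.75 in Cy5 alone. Outside the 7, the 5 named genes most like the mean were NEURL, LRRN6C, KCNH3, PTPN5 and RASGEF1A, with r from 0.984 to 0.988 over the 24 arrays. KCNH3 is a potassium channel subunit and PTPN5 (STEP) a tyrosine phosphatase of neurons. The median r over all genes was 0.14 and the 95th percentile 0.89, so many genes followed the same pattern.

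Other genes of the same pathways were read from lists of related genes. Their counts stand beside 30.8% of all genes called higher and 23.4% called lower at 6 h in placebo left cortex, and 21.5% and 19.4% in placebo right cortex. Of 20 measured genes of calmodulin, CaM kinases and calcineurin, 11 were called higher and 2 lower at 6 h in placebo left cortex, and 10 and 2 in placebo right cortex, with medians of 1.12 and 0.92. Calmodulin gene CALM3 rose by 1.84 and 1.92, the calmodulin-binding growth cone protein GAP43 by 2.75 and 2.76, and the CaM kinase II gamma chain CAMK2G by 2.12 and 1.71. PPP3CB, another catalytic chain of calcineurin, rose by 1.004 and 0.90. These rises are of the ratio, and the mean log2 Cy5 intensity of the list was slightly lower at 6 h. It went from 11.02 to 10.85 in placebo left cortex and from 10.96 to 10.80 in placebo right cortex. Under TatNR2B9c 0 of these 20 were called between times, with medians of 0.17 on the left and 0.14 on the right.

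Of 18 spine scaffold and cytoskeleton genes, 12 were called higher and 2 lower at 6 h in placebo cortex of each side, with medians of 1.17 and 0.92. The dendritic microtubule protein MAP2 rose by 2.85 on the left and 2.21 on the right, and the spine actin-binding protein DBN1 (drebrin) by 2.87 and 2.26. The mean log2 Cy5 intensity of the list rose less, from 9.24 to 9.39 on the left and from 9.14 to 9.46 on the right. MAP2 was also called higher under TatNR2B9c than placebo at 1 h, by 2.19 on the left and 1.95 on the right. By limma 0 genes of this list were called under TatNR2B9c between times, with medians of 0.40 and 0.53.

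Most relatives and partners of ICAM5 were called lower in the ratio at 6 h under placebo. Of 11 measured genes, 0 were called higher and 9 lower at 6 h in placebo left cortex, and 0 and 8 in placebo right cortex, with medians of -0.999 and -1.015. ICAM3, an adhesion protein of leukocytes, fell by 2.13 and 2.09, ICAM2 of endothelium and platelets fell by 1.55 and 1.95, the leukocyte integrin chain ITGB2 fell by 1.403 and 1.501, and MMP9, a protease that can cut ICAM5, fell by 2.24 and 2.47. These falls are of the ratio, and the mean log2 Cy5 intensity of the list was not lower at 6 h. It was 8.42 at 1 h and 8.78 at 6 h in placebo left cortex, and 8.58 and 8.69 in placebo right cortex. The fewest of the 11 well above background on a placebo left 1 h array was 5. Under TatNR2B9c 0 of the 11 were called between times. MMP9 was higher under TatNR2B9c than placebo in left cortex at 6 h by 2.61.

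Of 11 genes of inositol trisphosphate metabolism and its receptors, to which ITPKA belongs by its substrate, 4 were called higher and 2 lower on the left and 3 and 3 on the right at 6 h under placebo, shares near those of all genes. The receptor ITPR1 rose by 1.62 and 1.58 and ITPR3 fell by 1.84 and 1.58. Of 12 measured genes of the RND group and plexin signalling, 6 were called higher and 1 lower on the left and 5 and 1 on the right, with the semaphorin receptors PLXNA1 (1.97 on each side) and PLXNA2 (1.91 and 1.74) among the higher. The mean log2 Cy5 intensity under placebo went from 10.13 to 9.91 and from 10.10 to 10.04 for the inositol trisphosphate list. For the RND and plexin list it went from 9.46 to 9.80 and from 9.42 to 10.02. In both lists 0 genes were called between the times under TatNR2B9c.

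In the ratio, neuron and oligodendrocyte markers were higher at 6 h under placebo, as the 7 genes were, and markers of meninges and blood were lower. All 8 measured neuron markers were called higher at 6 h in placebo cortex of each side, with medians of 2.30 on the left and 2.40 on the right, and 0 of 8 were called under TatNR2B9c (0.62 and 0.92). The mean log2 ratio of the neuron list was 0.24 to 1.80 on placebo left 1 h arrays and 3.52 to 3.60 at 6 h, and 0.51 to 2.28 and 3.66 to 4.18 on the right. Under TatNR2B9c it was 1.87 to 2.62 on the left and 2.07 to 2.49 on the right at 1 h, and 2.34 to 3.46 and 2.72 to 3.53 at 6 h. Oligodendrocyte markers were higher too, with 5 of 6 called on the left and 3 of 6 on the right under placebo, and so were excitatory neuron markers (5 and 4 of 5) and interneuron markers (5 and 3 of 6). Astrocyte markers were called higher for 3 and 2 of 6, microglia markers for 2 higher on the left and 3 lower on the right of 6, and endothelium markers for 1 lower of 5 on each side. Of 4 measured meningeal and choroid plexus markers 3 were called lower on each side and of 4 blood markers 2, with list medians of -1.65 and -1.31 for the first and -1.60 and -1.70 for blood. The mean log2 Cy5 intensity was lower at 6 h for blood on each side and for meninges on the right only. That of the neuron list rose from 13.34 to 13.63 on the left and from 13.29 to 13.93 on the right. It went from 11.24 to 11.20 and from 11.70 to 11.08 for oligodendrocytes. For excitatory neurons it went from 10.65 to 10.35 and from 10.40 to 10.20. Interneuron (10.76 to 10.57 and 10.84 to 10.61) and astrocyte lists (11.68 to 10.79 and 11.73 to 11.25) were lower in Cy5 too. The part of tissue make-up or of the campaign in the changes of the 7 genes was not tested.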

How the data were processed

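Sample RNA (Cy5) and a common reference (Cy3) were hybridised to 24 Agilent arrays, with no dye swap per the labels. The authors used 3 versions of Agilent's Feature Extraction software per the file headers, 9.5.3.1 for placebo arrays at 1 h, 10.5.1.1 for those at 6 h and 10.7.3.1 under TatNR2B9c. The deposited intensities are mean spot and median local background signals on a linear scale, per the file headers. The deposited log10 ratios are of the software's processed signals, and the authors' value table holds the same to within 0.005. The deposited 0 or 1 flags mark spots as well above background, saturated or not uniform, per the file headers.

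Background was corrected by normexp (offset 50) and ratios were normalised by loess within arrays, with control spots at weight 0. Not uniform spots were dropped and the spots of a probe averaged. Kept were probes whose Cy5 signal was well above background throughout 1 group or more (17226, of which 17184 had a value on every array), and a gene was read by its brightest probe (15899 genes). Limma 3.58.1 in R 4.3.3 (lmFit, eBayes, two-sided) was fitted on all arrays with 1 mean per group, and a call needed an adjusted p (Benjamini-Hochberg, all genes tested) under 0.05. Fits were tested on simulated data before use. The precision is limited by 3 arrays per group. Named were all 7 genes, the 5 genes most like their mean, and called genes of 5 pathway lists. Lists are described by counts and medians, with no list test. The genes and lists were chosen with earlier results of these data known. Same-numbered left and right arrays, read as 1 animal from the labels' number, had deviations from their group means that correlated between -0.71 and 0.69 over genes, so animal was used as a block only as an alternative. Plots were drawn with matplotlib 3.10.9 in Python 3.11.15.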

Additional observations from a re-analysis of the deposited data

Results flagged for a closer look

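The right minus left difference of ITPKA at 1 h had opposite signs in every animal of the placebo and TatNR2B9c groups: 1.60, 0.78 and 1.44 in the placebo animals and -0.56, -0.39 and -0.53 in the TatNR2B9c animals. The treatment by hemisphere estimate was -1.77 ± 0.57 (SE), with an unadjusted limma p of 0.00596 and an adjusted p of 1, so the difference did not pass. It was -1.11 without the 3 weak-reference arrays, 0.15 in Cy5 alone and 1.68 in Cy3 alone. The Cy5 value rests in part on placebo animal 3, at -1.20 with both arrays weak-reference, while placebo animals 1 and 2 gave 0.19 and 0.06. The 2 treatments were scanned in separate campaigns, which cannot be told apart from the treatment here.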

How the results depend on the processing

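Of the 28 time differences of the 7 genes 12 were called, and of the 28 treatment differences 5; right against left and the interaction gave 0. Leaving out 1 array at a time moved these counts to between 12 and 14 and between 2 and 7, the lowest without TatNR2B9c left 1 h array 2 and the highest without placebo left 1 h array 2, and 3 treatment calls were left without TatNR2B9c left 1 h array 1 or placebo left 1 h array 1 or 3. The time calls numbered 3 with the spread of the arrays made equal and 5 with median centring in place of loess, 2 of them higher and 3 lower. The treatment calls numbered 11 in Cy5 alone, 9 with array weights, 1 with only the compared groups in the fit, 16 with median centring, all of them lower at 1 h as well as 6 h, and 2 with scan day as a block. With the animal number as a replicate block the counts stayed at 12 and 5, and this pairing changed no call. In Cy3 alone, added after the data had been seen, the placebo difference between times (left, then right) was -3.32 and -2.35 for CAMK2A, -0.59 and -0.13 for CAMK2B, -2.42 and -1.44 for ICAM5, -1.71 and -0.29 for ITPKA, -1.92 and -1.04 for RND1, and -0.0052 on the left for NRGN. There TatNR2B9c minus placebo at 1 h on the left was -0.039 for CAMK2B, -1.37 for ITPKA and -2.39 for RND1, and -1.72 for RND1 on the right. With median centring the placebo time difference was -0.56 and -0.16 for CAMK2A, -1.68 and -0.77 for CAMK2B, and -1.42 and -1.35 for ITPKA. TatNR2B9c minus placebo at 1 h was then -2.77 for CAMK2B, -2.28 for ITPKA and -0.93 for RND1 on the left and -0.46 for RND1 on the right. With equal spread CAMK2B was at -0.14 and -0.11, ITPKA on the right at -0.52, and NRGN under TatNR2B9c against placebo on the left at 6 h at 0.32. In Cy5 alone ITPKA under TatNR2B9c against placebo on the left at 1 h was at -0.038. The cause of these turns was not tested. With 3 arrays per group, and a reference signal near background on many placebo 1 h probes, small differences were not detectable. Over all genes, the placebo time calls (8620 left, 6506 right) numbered 2317 and 3962 in Cy5 alone, 2008 and 724 with equal spread, 4699 and 2364 with processed signals and 12139 and 11398 with median centring. With array weights 2065 genes were called between the TatNR2B9c times on the right, against 0, and 3 of the 7 genes.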
